A study of Arabidopsis thaliana with 18 samples.

Results

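The genes described here belong to 4 plant cell wall families: the alpha-expansins (EXPA), the beta-expansins (EXPB), the xyloglucan endotransglucosylase/hydrolases (XTH) and the trichome birefringence-like proteins (TBL). A probe set was a member if the platform annotation gave it exactly 1 gene and the symbol of that gene began with EXPA, EXPB, XTH or TBL followed by a number. That rule used names and no measured value, and it found 45 members among 22746 probe sets, of which 13513 had 1 annotated gene. The members were 10 EXPA, 4 EXPB, 9 XTH and 22 TBL probe sets, each for a different gene. RefSeq (TAIR10.1) names 25 EXPA, 6 EXPB, 33 XTH and 45 TBL genes, so every family was measured in part, and 2 probe sets shared by several genes with such names were left out.

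Transcripts were measured on Affymetrix ATH1 GeneChips, 1-colour oligonucleotide arrays, in Arabidopsis thaliana of the accession Ws-2 (Wassilewskija). The 18 arrays formed 6 groups of 3: potassium-starved, caesium-treated and control shoots, and potassium-starved, caesium-treated and control roots. All groups were of that 1 accession (stock N1601) at developmental stage 3.90, raised on agar medium (dilute Murashige and Skoog salts, 1% sucrose) at 22 °C in 16 h days, and no transgene or mutation is named. The title of the series asks how expression under potassium starvation compares with that under caesium, which enters plants by the routes that carry potassium. Dose and duration of the caesium treatment, and how plants were starved of potassium, are not stated in the labels.

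Growing plant cells enlarge when the wall yields to turgor. Expansins loosen the wall without cutting its polymers and act best at acid pH. XTH enzymes cut xyloglucan, the hemicellulose that coats cellulose, and most of them rejoin the cut end to another chain. TBL proteins act in the Golgi, where several of them add acetyl groups to xylan, mannan, xyloglucan or pectin as these polymers are made. In roots, EXPA7 and EXPA18 are known for their expression in root hair cells.

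A member was tested in a tissue if at least 3 of the arrays fitted had a signal above the 40th percentile of their own array. By that filter 26 of the 45 members were tested in shoots, 33 in roots and 36 in the fit of all 18 arrays. The filter left out EXPA7, EXPA18, EXPA21, EXPA24, EXPB2, EXPB5, XTH20, XTH21, XTH26 and 10 TBL members in shoots. In roots it left out EXPA16, EXPA21, EXPA24, EXPB5, XTH26, XTH29 and 6 TBL members. Differences are on the log2 scale of the deposited signal with the standard error from limma, and a member was called at a Benjamini-Hochberg adjusted p under 0.05 over all probe sets tested. Some counts at an unadjusted p under 0.05 are also given. The share of all probe sets at that p was not counted, so nothing about the members is read from those counts. The labels do not say whether replicates were separate cultures, so a p-value here measures only how far these arrays spread, and that spread may be technical.

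Arrays were comparable in scale, with median signals from 33.0 to 45.4 and 40th percentiles from 21.6 to 29.4. The ratio of 3' to 5' actin signal, a mark of RNA and target quality, ran from 3.26 to 8.15. Tissue markers stood as labelled. The summed signal of 5 photosynthesis genes was 177 to 308 in potassium-starved roots, 299 to 451 in caesium-treated roots and 135 to 258 in control roots, against 8013 to 10280, 9490 to 12671 and 12620 to 14483 in the same 3 groups of shoots. The root gene PYK10 was at 1915 or more on every root array, and in shoots its signal went with the replicate number, at 903, 949 and 1200 on the 3 arrays of replicate 2 against 46.9 to 521 on the other 6, and what this has to do with the members' shoot values was not tested. No gene of the root hair marker list had a named probe set, and the trichome gene TRY was at 7.08 to 20.8 in roots and 15.6 to 27.9 in shoots.

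Most members of all 4 families were higher in roots than in shoots when control arrays were compared. Among the 36 members tested, 24 were called higher and 6 lower in roots, while over all 16397 probe sets tested 30.6% were called higher and 22.5% lower. Higher in roots were 5 of 8 EXPA, 2 of 3 EXPB, 5 of 8 XTH and 12 of 17 TBL members. The 3 arrays of roots lay all above those of shoots for 25 members and all below for 6, beside 35.8% and 25.6% of all probe sets. Called lower were EXPA8, XTH29, XTH32 and the TBL members TBL25, TBL26 and TBL45. EXPA7, EXPA18, EXPB2, XTH20, XTH21, TBL19, TBL30, TBL32, TBL34 and TBL41 did not pass the filter on shoot arrays alone. EXPA16, XTH29 and TBL26 did not pass it on root arrays alone. The filter took in these members mainly through the other tissue, and their differences were in part built in by it. The counts of calls are therefore not read as a trait of the families. In bulk tissue, fewer cells that express a gene and less RNA of it per cell cannot be told apart.

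**Figure D1:**
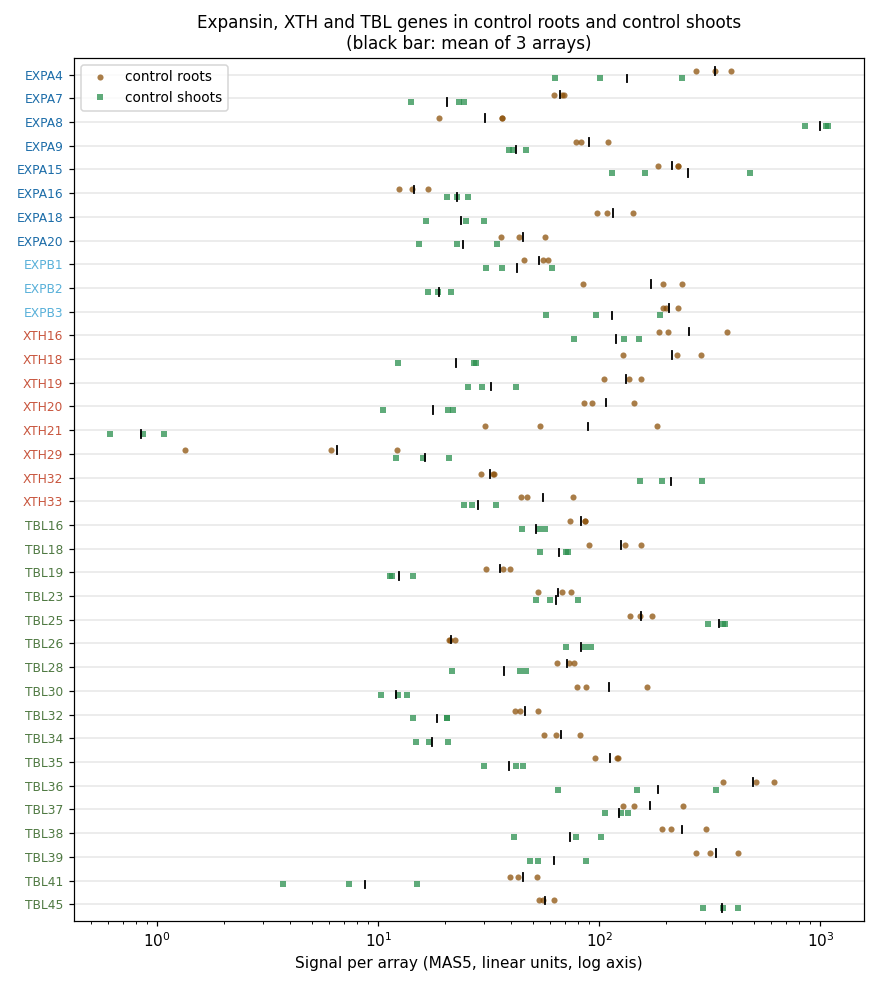
Signal of each of the 36 members tested in the fit of all 18 arrays, on a log axis of linear MAS5 units, with 1 point per array, brown circles for control roots, green squares for control shoots and a black bar for the mean of 3 arrays. Roots lay at higher signals for most members, and EXPA8, EXPA16, XTH32, TBL25, TBL26 and TBL45 stood the other way round, with EXPA16 not called. XTH29 was also called lower in roots, with overlapping signals.

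Among expansins, the root hair genes EXPA7 and EXPA18 were both higher in control roots than in control shoots. EXPA7, EXPA18 and EXPB2 did not pass the filter on shoot arrays alone, so their differences were in part built in by it. EXPA18 had signals of 108, 142 and 97.7 in control roots, against 16.4, 30.1 and 24.8 in control shoots (log2 2.31 ± 0.26 SE, adjusted p = 9.68e-07 by limma). EXPA7 differed by 1.74 ± 0.26 (adjusted p = 1.98e-05), and all 3 of its control shoot signals lay at or below the 40th percentile of their arrays. EXPB2, a beta-expansin, had 83.9, 194 and 235 in control roots, against 16.7, 18.6 and 21.4 in control shoots (3.06 ± 0.33, adjusted p = 5.67e-07). EXPA8 was the only tested expansin called lower in roots, with 36.2, 18.9 and 36.1 in control roots, against 1077, 849 and 1059 in control shoots (-5.09 ± 0.37, adjusted p = 4.46e-09).

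EXPA4 and EXPA9 were also higher in roots, by 1.53 ± 0.42 (adjusted p = 0.00581 by limma) and 1.09 ± 0.24 (adjusted p = 0.0012). EXPB3 was called higher by 1.02 ± 0.41 (adjusted p = 0.0448), a call that ended without control shoot replicate 1 (log2 0.61, adjusted p = 0.233) or without any other 1 of the 6 arrays except control shoot replicate 3. For EXPA15 the groups overlapped, with 226, 226 and 184 in control roots and 114, 160 and 482 in control shoots.

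Among XTH genes, the members XTH18, XTH19 and XTH20, from a group of closely related genes known for root expression, were all higher in roots. XTH18 had 225, 289 and 128 in control roots, against 27.2, 27.5 and 12.3 in control shoots (3.27 ± 0.69, adjusted p = 0.000668 by limma). XTH20 differed by 2.63 ± 0.39 (adjusted p = 2.02e-05) and XTH19 by 2.04 ± 0.31 (adjusted p = 3.06e-05). XTH20 and XTH21 did not pass the filter on shoot arrays alone, so their differences were in part built in by it. XTH18 and XTH19 are direct neighbours in the genome by the RefSeq annotation. XTH21, known for a part in root growth, had 182, 30.5 and 53.9 in control roots against 0.61, 0.861 and 1.07 in control shoots. Those shoot signals were far below the 40th percentile of their arrays, and the log2 difference of 6.34 ± 0.67 (adjusted p = 3.99e-07) came to 2.36 with a pseudocount of 16.

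XTH32 ran the other way, with 33.2, 29.2 and 33.2 in control roots, against 153, 192 and 291 in control shoots (-2.68 ± 0.28, adjusted p = 4.19e-07 by limma). XTH32 belongs to the small clade of the family whose known enzymes hydrolyse xyloglucan. XTH29 was called lower in roots (-1.78 ± 0.58, adjusted p = 0.0158), but its signals were low and overlapped, at 12.2, 1.33 and 6.09 in control roots and 20.9, 12.0 and 16.0 in control shoots. Without control root replicate 2 its difference was -0.88 (adjusted p = 0.0946), and leaving out control shoot replicate 1 gave -1.58 (adjusted p = 0.0578).

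Among the 12 TBL members called higher in roots were TBL28, TBL30, TBL32, TBL34 and TBL35, which are known to act in xylan acetylation, by 1.01 to 3.13. These 5 were grouped here from background knowledge of their roles, and whether they differ from the other TBL members was not tested. TBL30 had 87.4, 78.9 and 164 in control roots, against 12.3, 10.3 and 13.5 in control shoots (3.13 ± 0.27, adjusted p = 4.28e-08 by limma). TBL28 and TBL30 lie next to each other in the genome, and the probe set of TBL32 is of a type that may also match related transcripts, so its signal is uncertain. TBL41 was higher by 2.59 ± 0.57 (adjusted p = 0.00107), TBL39 by 2.46 ± 0.24 (adjusted p = 1.41e-07) and TBL34 by 1.94 ± 0.34 (adjusted p = 0.000111). For TBL30, TBL34 and TBL41 all 3 control shoot signals were no higher than the 40th percentile on their arrays, and the sizes of their differences thus rest on noisy low values. With a pseudocount of 16 they were 2.11 for TBL30, 1.31 for TBL34 and 1.32 for TBL41, beside 2.18 for TBL39. TBL30, TBL32, TBL34 and TBL41 did not pass the filter on shoot arrays alone, so their differences were in part built in by it.

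TBL25 and TBL26, which with TBL23 are known to acetylate mannan, were lower in control roots, by -1.17 ± 0.18 (adjusted p = 2.78e-05 by limma) for TBL25 and -1.95 ± 0.33 (adjusted p = 9.09e-05) for TBL26. TBL26 did not pass the filter on root arrays alone, so its difference was in part built in by it. TBL23 did not pass the test, at 0.03 ± 0.19. TBL45 had the greatest difference towards shoots of the tested TBL members, with 62.0, 53.1 and 55.5 in control roots, against 295, 422 and 364 in control shoots (-2.65 ± 0.29, adjusted p = 7.04e-07).

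Potassium-starved shoots differed from control shoots in 10 of the 26 members tested, with 4 called higher and 6 called lower. Among these, the calls of XTH29 and XTH33 stand under a limit of the filter that is given with their values. Over all 14665 probe sets tested, 11.4% were called higher and 16.7% lower, 28.1% in all, so calls were frequent across the whole array and the members' share is not read as particular to them. The starved arrays lay all above the control arrays for 4 members and all below for 6, beside 17.0% and 25.7% of all probe sets. The calls fell in 3 of the 4 families: EXPA had 2 higher and 1 lower of 6, XTH 2 higher and 2 lower of 6, and TBL 0 higher and 3 lower of 12. Neither EXPB member was called, with 1 of 2 at an unadjusted p under 0.05. The median difference of all probe sets was -0.14 here, and shifting each array to a common median put it at 0.01, so that values relative to the array as a whole lie about 0.16 higher than those given.

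**Figure D2:**
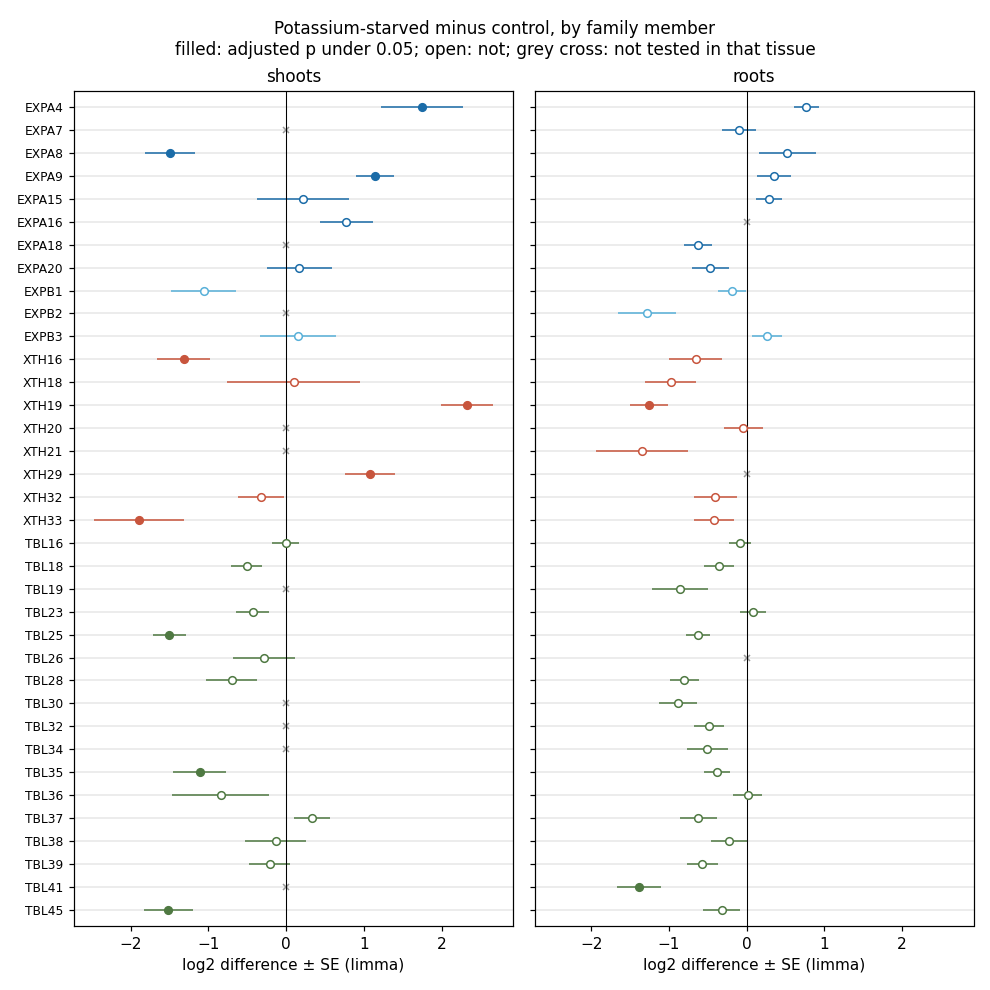
Difference between potassium-starved and control arrays for each tested member, in log2 units with standard errors from limma, with shoots on the left and roots on the right; filled circles passed an adjusted p of 0.05, open circles did not, and grey crosses mark members not tested in that tissue. In shoots EXPA and XTH held calls on both sides of 0, the 3 TBL calls were all lower and EXPB had none, and in roots the 2 calls, XTH19 and TBL41, were both lower.

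The called alpha-expansins did not share a direction in potassium-starved shoots. EXPA9 had 126, 67.5 and 93.9 in potassium-starved shoots, against 40.8, 46.4 and 38.8 in control shoots. Its groups did not overlap, and it rose by 1.15 ± 0.25 (adjusted p = 0.00803 by limma). EXPA8 had 257, 311 and 545 in potassium-starved shoots, against 1077, 849 and 1059 in control shoots, and fell by 1.49 (SE 0.33, adjusted p = 0.00864). The sum of the 5 photosynthesis markers was also lower in potassium-starved shoots, at 8013 to 10280 against 12620 to 14483 in control shoots. Of the 5 markers 3 were called lower by limma. LHCB4.1, 1 of the 3, was at an adjusted p of 0.0788 after the shift to a common median. The marker RCA overlapped, with 3144, 2115 and 2638 in potassium-starved shoots against 2941, 3397 and 3719 in control shoots. The part of the lower marker sum in the falls of shoot-biased members was not tested.

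EXPA4 was called higher, by 1.75 ± 0.53 (adjusted p = 0.0316 by limma), although its arrays overlapped. Its signals were 464, 218 and 563 in potassium-starved shoots, against 63.2, 101 and 235 in control shoots. In both groups, and in caesium-treated shoots too, the array of replicate 3 was the highest. EXPA4 lost its call when 1 of 4 arrays was left out: the adjusted p was 0.113 without control shoot replicate 1, 0.0647 without control shoot replicate 2, 0.0861 without potassium-starved shoot replicate 1 and 0.0885 without potassium-starved shoot replicate 3.

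XTH19, an auxin-inducible member, rose the most of the tested members. Its signals were 118, 149 and 226 in potassium-starved shoots, against 25.5, 29.6 and 41.9 in control shoots (log2 2.33 ± 0.33, adjusted p = 0.00119 by limma). Its neighbour XTH18 did not pass the test, at 28.8, 59.0 and 6.65 in potassium-starved shoots and 27.2, 27.5 and 12.3 in control shoots (0.10 ± 0.85). Adjacent genes of the same subgroup thus gave separated signals in the one case and overlapping signals in the other; the difference between the 2 genes was not tested.

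XTH29 rose by 1.08 ± 0.32 (adjusted p = 0.0299 by limma), with 41.3, 34.3 and 26.7 in potassium-starved shoots against 20.9, 12.0 and 16.0 in control shoots. All 3 control signals were at or below the 40th percentile of their arrays. XTH33, a member with a membrane anchor, fell by 1.89 (SE 0.58, adjusted p = 0.0335), with 8.54, 3.04 and 16.6 in potassium-starved shoots against 34.1, 26.6 and 24.3 in control shoots. Its 3 potassium-starved signals were likewise at or below that percentile, and with a pseudocount of 16 the difference was -0.83. XTH29 passed the filter mainly through the potassium-starved arrays, where it is high. XTH33 passed it through control and caesium-treated arrays and no potassium-starved array. Both differences were thus in part built in by the filter, and nothing further is read from the calls of XTH29 and XTH33. XTH16 fell by 1.32 (SE 0.34, adjusted p = 0.018), with 36.5, 71.4 and 37.4 in potassium-starved shoots against 77.0, 129 and 151 in control shoots. In each of these 2 shoot groups of XTH16 the lowest array was that of replicate 1.

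These 3 XTH calls rested on few arrays. XTH29 lost its call without potassium-starved shoot replicate 1 (adjusted p = 0.087) or 2 (0.0747) and without control shoot replicate 2 (0.0767) or 3 (0.0736). It also lost the call in the fit of all 18 arrays (0.169) and in a fit of only the 6 arrays compared (0.0542). XTH33 lost it without potassium-starved shoot replicate 1 (0.0567) or 2, where its difference was -1.24 (0.0703), and without control shoot replicate 3 (0.0722). XTH33 failed the filter, and had no test, without control shoot replicate 1 or 2, so it kept the call in 1 of 4 such fits, and with array weights it was at -1.13 (adjusted p = 0.1). XTH16 lost it without potassium-starved shoot replicate 1 (0.0585) or 3 (0.0507) and without control shoot replicate 3 (0.0688), and it narrowly lost it after the shift to a common median (log2 -1.16). XTH32 stayed without a call, at -0.32 ± 0.29.

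The 12 TBL members tested in shoots had a median difference of -0.47, beside -0.14 for all probe sets, and 11 of the 12 were negative. The median was -0.31 after the shift to a common median. TBL25 fell by 1.50 (SE 0.21, adjusted p = 0.00119 by limma), with 114, 99.4 and 161 in potassium-starved shoots against 309, 362 and 369 in control shoots. TBL45 fell by 1.51 (SE 0.32, adjusted p = 0.00716), with 71.9, 153 and 177 in potassium-starved shoots against 295, 422 and 364 in control shoots. Both genes were shoot-biased in the controls, and both kept their calls without any 1 of the 6 arrays.

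TBL35, of the xylan group, fell by 1.11 (SE 0.34, adjusted p = 0.0338 by limma), with 20.4, 10.7 and 26.0 in potassium-starved shoots against 30.1, 45.0 and 41.9 in control shoots. It lost the call without potassium-starved shoot replicate 2 (log2 -0.74, adjusted p = 0.0801), control shoot replicate 2 (adjusted p = 0.0869) or control shoot replicate 3 (adjusted p = 0.103). Of the other xylan members only TBL28 was tested in shoots, at -0.70 ± 0.33 (adjusted p = 0.133). The mannan members TBL23 and TBL26 did not pass the test, at -0.43 ± 0.22 and -0.29 ± 0.40.

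Replicate numbers paired the shoot arrays, and with the number as a block 12 members were called in place of 10, while calls over all probe sets also became more frequent, at 14.9% higher and 23.9% lower. The 2 added were EXPB1 (-1.06, adjusted p = 0.0833 without and 0.0057 with the block) and TBL36 (-0.84, adjusted p = 0.338 without and 0.0486 with the block). EXPB1 had 19.1, 12.1 and 31.9 in potassium-starved shoots, against 36.1, 30.7 and 60.8 in control shoots. TBL36 had 78.4, 48.7 and 148 in potassium-starved shoots, against 64.9, 147 and 338 in control shoots. Both had their highest signal on replicate 3 in every shoot group. So did EXPA4, EXPA15, EXPB3 and XTH32, which makes 6 of 45 members, while 6.03% of all probe sets had that pattern in shoots.

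In potassium-starved roots 2 of the 33 members tested were called, both lower, while 0.714% of the 14432 probe sets tested were called higher and 0.381% lower, 1.09% in all. They were XTH19, the auxin-inducible member, and TBL41, whose call stands under a limit of the filter that is given with its values. The starved arrays lay all above the control arrays for 2 members and all below for 13, beside 10.3% and 12.0% of all probe sets. The median difference of all probe sets was -0.03.

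XTH19 had 79.5, 40.8 and 49.5 in potassium-starved roots, against 154, 136 and 105 in control roots, and fell by 1.26 (SE 0.24, adjusted p = 0.0376 by limma). TBL41 had 20.5, 18.1 and 13.4 in potassium-starved roots, against 52.4, 43.0 and 39.6 in control roots, and fell by 1.39 (SE 0.28, adjusted p = 0.0449). The groups of both genes were apart, and the potassium-starved signals of TBL41 all lay at or below the 40th percentile of their arrays. TBL41 thus passed the filter through no potassium-starved array. Its difference was in part built in by the filter, and nothing further is read from its call.

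Both calls were close to the threshold. XTH19 lost its call without potassium-starved root replicate 2 (adjusted p = 0.136) or 3 (0.152) or control root replicate 1 (0.116) or 2 (0.087). TBL41 lost its call without potassium-starved root replicate 2 (0.126) or 3 (0.162) or any control root replicate (0.0677 to 0.137). With no filter on low signals the adjusted p was 0.0625 for XTH19 and 0.0709 for TBL41.

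Across the TBL family in roots, 14 of 16 differences were negative, where the median of all probe sets was -0.03. In 10 of the 16 members all 3 potassium-starved arrays were below all 3 control arrays, beside 12.0% of all probe sets. Of these 10 members only TBL41 passed the test, under the limit of the filter given with its values. An unadjusted p under 0.05 was reached by 9 of the 16. The share of all probe sets at that unadjusted p was not counted, so nothing is read from this count. Whether the family as a whole fell was not tested. The 5 xylan members were among the 10, at -0.80 ± 0.19 for TBL28, -0.89 ± 0.24 for TBL30, -0.48 ± 0.19 for TBL32, -0.51 ± 0.26 for TBL34 and -0.39 ± 0.17 for TBL35, with adjusted p from 0.0678 to 0.332. TBL28 had 39.4, 47.2 and 36.3 in potassium-starved roots, against 72.8, 76.9 and 64.0 in control roots. The other 4 separated members were TBL19, TBL25, TBL37 and TBL39.

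**Figure D3:**
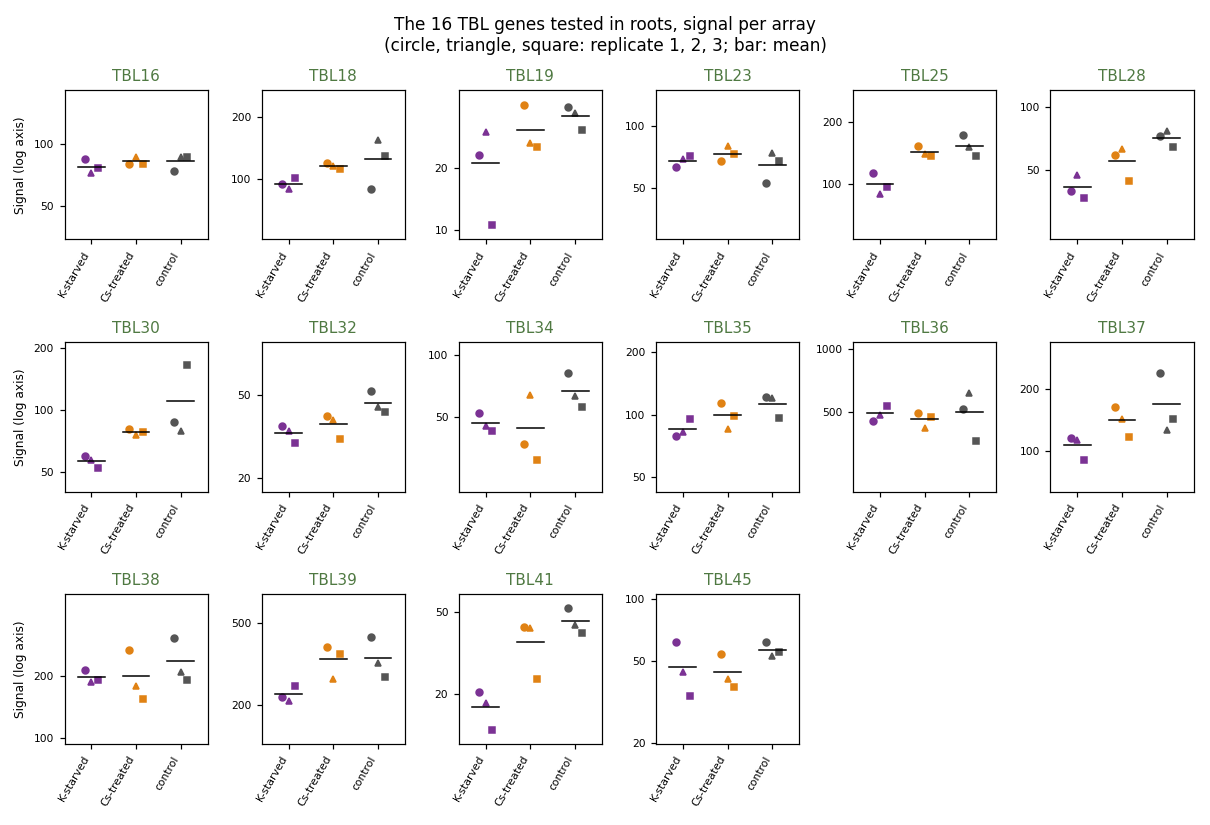
Signal of each of the 16 TBL members tested in roots, with 1 point per array on a log axis of linear MAS5 units, potassium-starved, caesium-treated and control roots from left to right, and circles, triangles and squares for replicates 1, 2 and 3. The 3 potassium-starved arrays lay below the 3 control arrays in 10 panels, beside 12.0% of all probe sets. Among them were TBL28, TBL30, TBL32, TBL34 and TBL35, while TBL16, TBL23 and TBL36 overlapped.

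Groups overlapped for the mannan member TBL23 and for TBL16 and TBL36. TBL36 had 452, 484 and 534 in potassium-starved roots and 513, 615 and 362 in control roots (0.01 ± 0.19). TBL23 stood at 0.08 ± 0.17 and TBL16 at -0.08 ± 0.14. None of the 3 passed the test.

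All 7 XTH members tested in roots had negative differences, from -1.35 to -0.04, with XTH19 the only one called. XTH21 was at -1.35 ± 0.60 (adjusted p = 0.26 by limma) and XTH18 at -0.98 ± 0.33 (adjusted p = 0.159). XTH18 overlapped, with 141, 119 and 64.7 in potassium-starved roots and 225, 289 and 128 in control roots. XTH20 had 71.4, 124 and 116 in potassium-starved roots and 84.8, 144 and 92.4 in control roots (-0.04 ± 0.26). XTH26, known from root hairs, was not tested, and its signals of 7.24, 3.43 and 2.25 in potassium-starved roots and 18.1, 34.4 and 6.84 in control roots were mostly below the filter.

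Expansins in potassium-starved roots had no call. EXPA4 was nearest to one, with 553, 530 and 608 in potassium-starved roots, against 335, 395 and 275 in control roots (0.76 ± 0.16, adjusted p = 0.0526 by limma). Its groups did not overlap, and its adjusted p was 0.0467 with the pseudocount and 0.0453 after the shift to a common median. The root hair genes gave unequal values, with EXPA18 at 73.7, 78.9 and 70.0 in potassium-starved roots against 108, 142 and 97.7 in control roots (-0.63 ± 0.18, adjusted p = 0.117). EXPA7 overlapped, with 75.1, 49.4 and 64.0 in potassium-starved roots and 69.4, 68.0 and 62.3 in control roots (-0.10 ± 0.22). EXPB2 had 42.0, 75.5 and 83.7 in potassium-starved roots against 83.9, 194 and 235 in control roots (-1.28 ± 0.37, adjusted p = 0.117). The lowest array of EXPB2 in either group was that of replicate 1.

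The response to potassium starvation differed between roots and shoots for 3 of the 36 members, with 2 differences called higher and 1 lower in roots. Over all probe sets 4.26% were called higher and 4.11% lower, 8.37% in all, in that test, which subtracts the shoot difference from the root difference. XTH19 fell in roots and rose in shoots, a difference of -3.59 ± 0.44 (adjusted p = 0.000195 by limma). EXPA8 was at 0.52 ± 0.37 in roots and -1.49 ± 0.33 in shoots, a difference of 2.02 ± 0.53 (adjusted p = 0.0271). TBL25 was at -0.62 ± 0.15 in roots and -1.50 ± 0.21 in shoots, a difference of 0.88 ± 0.25 (adjusted p = 0.0415).

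The calls of EXPA8 and TBL25 in that test depended on single arrays, and that of XTH19 did not. EXPA8 lost its call without any 1 of 7 of the 12 arrays, namely potassium-starved shoot replicates 1 (adjusted p = 0.0608) and 2 (0.0605), control shoot replicates 1 (0.0596) and 3 (0.0574), potassium-starved root replicates 1 (0.0657) and 3 (0.0716), and control root replicate 2 (0.0635). TBL25 lost its call without any 1 of 8 of the 12, namely potassium-starved shoot replicates 1 (0.072) and 2 (0.0889), control shoot replicates 2 (0.0644) and 3 (0.092), potassium-starved root replicates 1 (0.0957) and 3 (0.0755), and control root replicates 2 (0.0702) and 3 (0.0909). TBL25 was also at an adjusted p of 0.056 after the shift to a common median.

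The 13 members that passed a treatment test, with EXPA16, XTH29, XTH33 and TBL41 only under the limit of the filter given with their values, were, with their loci in the RefSeq annotation, EXPA4 (AT2G39700), EXPA8 (AT2G40610), EXPA9 (AT5G02260), EXPA16 (AT3G55500), XTH16 (AT3G23730), XTH19 (AT4G30290), XTH29 (AT4G18990), XTH33 (AT1G10550), TBL18 (AT4G25360), TBL25 (AT1G01430), TBL35 (AT5G01620), TBL41 (AT3G14850) and TBL45 (AT2G30010).

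**Figure D4:**
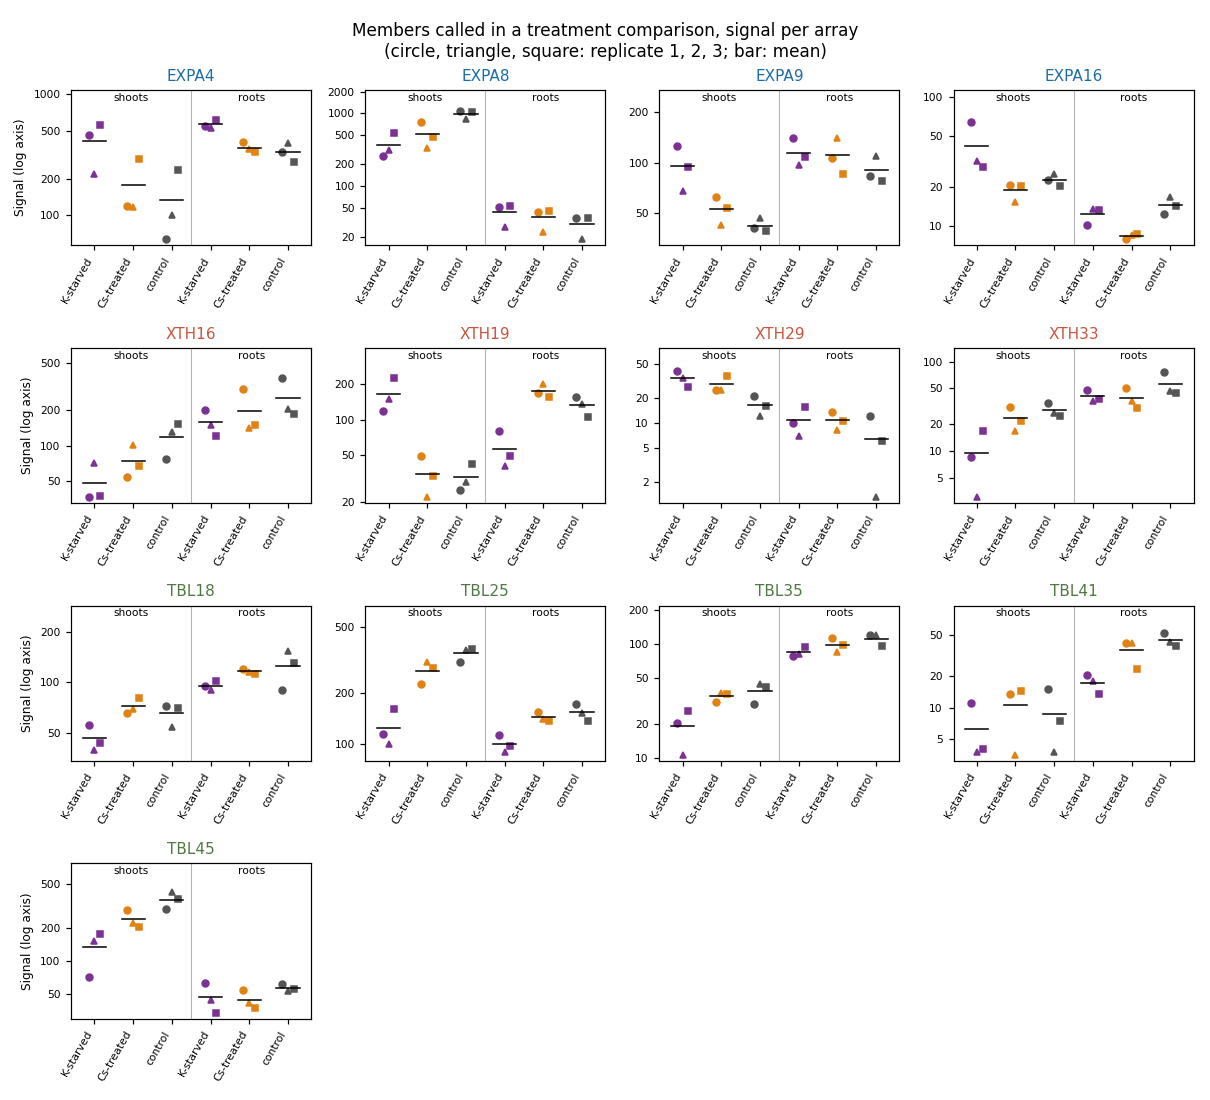
Signal per array of the 13 members called in at least 1 treatment comparison, on log axes of linear MAS5 units, with potassium-starved, caesium-treated and control arrays from left to right within shoots and then within roots, and circles, triangles and squares for replicates 1, 2 and 3. XTH19 is high in potassium-starved shoots and low in potassium-starved roots, and its caesium-treated arrays overlap the controls in shoots and lie just above them in roots.

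Caesium-treated shoots gave 0 calls among the 26 members tested, by limma, while 0.457% of all probe sets were called higher and 0.109% lower, 0.566% in all. The caesium-treated arrays lay all above the control arrays for 1 member, XTH29, and all below for 3, EXPA8, TBL25 and TBL45, beside 14.6% and 10.5% of all probe sets. With the replicate number as a block, which pairs these arrays, 436 probe sets were called higher and 245 lower, against 67 and 16 without it, and again 0 members. An unadjusted p under 0.05 was reached by 2 of the 26, EXPA8 and XTH29. EXPA8 had 753, 331 and 473 in caesium-treated shoots, against 1077, 849 and 1059 in control shoots (-1.01 ± 0.33, adjusted p = 0.178). Its groups did not overlap, and with array weights in the fit its adjusted p was 0.0338. The sum of the photosynthesis markers was 9490 to 12671 in caesium-treated shoots against 12620 to 14483 in control shoots, with 0 of 5 markers called, and its part in the EXPA8 values was not tested.

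XTH29 had 24.8, 25.0 and 36.6 in caesium-treated shoots, against 20.9, 12.0 and 16.0 in control shoots (0.84 ± 0.32, adjusted p = 0.258 by limma). XTH16 was at -0.67 ± 0.34, TBL45 at -0.60 ± 0.32 and TBL39 at -0.49 ± 0.26, all with adjusted p of 0.408 or more. EXPA9 was at 0.31 ± 0.25, EXPB1 at -0.44 ± 0.42 and EXPB3 at 0.33 ± 0.49. For EXPB3 the value was -0.08 without control shoot replicate 1. The TBL members had a median of 0.05 beside 0.03 for all probe sets, with 6 positive and 6 negative.

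**Figure D5:**
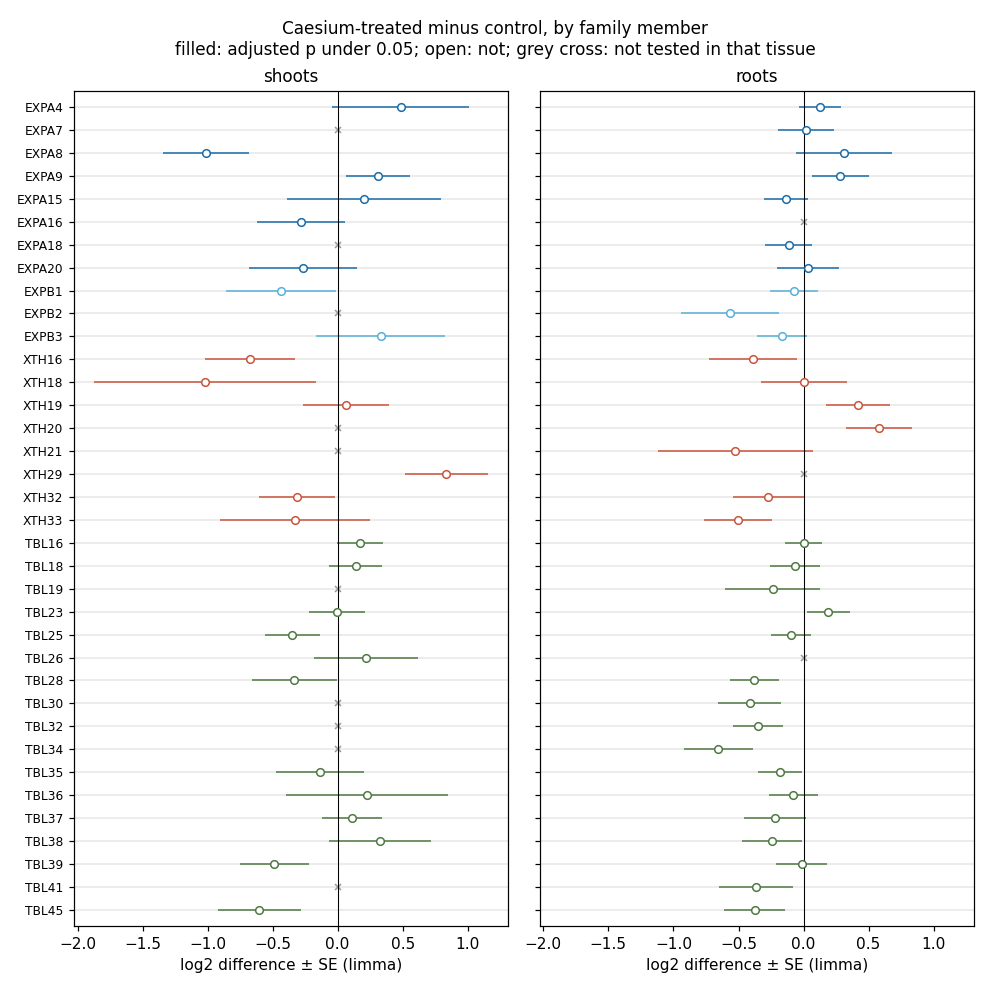
Difference between caesium-treated and control arrays for each tested member, in log2 units with standard errors from limma, with shoots on the left and roots on the right; all circles are open because no member passed an adjusted p of 0.05, and grey crosses mark members not tested in that tissue. The differences in both tissues lie between -1.02 and 0.84.

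Caesium-treated roots gave 0 calls among the 33 members, and 0 of 14432 probe sets were called in either direction by limma (0.0%). With the replicate number as a block, whose pairing of these arrays is uncertain, 20 probe sets were called higher and 22 lower, and again 0 members. An unadjusted p under 0.05 was reached by 2 members, TBL34 and XTH20. TBL34 had 37.4, 64.5 and 31.0 in caesium-treated roots and 81.7, 63.8 and 55.9 in control roots (-0.65 ± 0.26, adjusted p = 0.454). XTH20 had 147, 185 and 138 in caesium-treated roots and 84.8, 144 and 92.4 in control roots (0.58 ± 0.26, adjusted p = 0.499). Both pairs of groups overlapped.

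The next members by p in caesium-treated roots were XTH33 at -0.51 ± 0.26 and TBL28 at -0.38 ± 0.19. EXPA9 was at 0.28 ± 0.22, EXPA8 at 0.31 ± 0.37, EXPB2 at -0.57 ± 0.37 and EXPB3 at -0.17 ± 0.19. The value of EXPA8 was -0.01 without control root replicate 2. Of the 16 TBL members 14 had negative differences, with a median of -0.23 beside 0.01 for all probe sets, and 2 of them, TBL28 and TBL32, had all 3 caesium-treated arrays below all 3 control arrays. XTH19 was the 1 member with all 3 above, and among all probe sets 7.73% were below and 7.55% above. The potassium and caesium comparisons of a tissue share the same control arrays, so their values are given apart and no likeness between them is read.

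The difference of the caesium response between roots and shoots passed the test for 0 of the 36 members by limma, with 1 member, EXPA8, at an unadjusted p under 0.05, while 0.0671% of all probe sets were called higher and 0.0732% lower, 0.14% in all, in that test. EXPA8 was at 1.32 ± 0.53 (adjusted p = 0.409) and EXPA16 at -0.51 ± 0.42. XTH20 was at 1.13 ± 0.55, XTH18 at 1.03 ± 0.97, TBL39 at 0.47 ± 0.34 and TBL32 at -0.49 ± 0.36. EXPB3 was at -0.50 ± 0.58 and EXPB2 at -0.42 ± 0.47.

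Set directly against each other, the treatments differed in shoots for 5 of the 26 members, with 2 called higher and 3 lower in caesium-treated than in potassium-starved shoots, while 18.0% of all probe sets were called higher and 8.84% lower, 26.8% in all. The caesium-treated arrays lay all above the potassium-starved arrays for 7 members and all below for 3, beside 28.8% and 15.7% of all probe sets. XTH19 had 48.9, 22.1 and 33.4 in caesium-treated shoots, against 118, 149 and 226 in potassium-starved shoots (-2.26 ± 0.33, adjusted p = 0.00229 by limma). EXPA9 was lower by -0.83 ± 0.25 (adjusted p = 0.0316), with 62.2, 42.1 and 53.8 in caesium-treated shoots against 126, 67.5 and 93.9 in potassium-starved shoots. EXPA16 was lower by -1.06 ± 0.34 (adjusted p = 0.0417), with 20.9, 15.4 and 20.3 in caesium-treated shoots against 64.0, 31.9 and 28.7 in potassium-starved shoots. All 3 of these separated the groups. The caesium-treated and control signals of EXPA16 were all no higher than the 40th percentile on their arrays, and it passed the filter only through the potassium-starved arrays where it is high. A difference was thus built in by the filter, nothing is read from its call, and 4 of the 5 calls remain without it.

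TBL25 was higher in caesium-treated shoots, with 229, 306 and 285 against 114, 99.4 and 161 in potassium-starved shoots (1.15 ± 0.21, adjusted p = 0.00547 by limma). TBL18 had 65.5, 69.6 and 80.8 in caesium-treated shoots, against 55.8, 39.5 and 43.7 in potassium-starved shoots (0.64 ± 0.20, adjusted p = 0.0389). The median of all probe sets was 0.16 in this comparison, and TBL18 was at 0.38 (adjusted p = 0.126) after the shift to a common median. Over all probe sets that shift turned the calls from 2638 higher and 1297 lower to 1524 higher and 2331 lower.

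XTH19 and TBL25 kept their calls without any 1 of the 6 arrays. EXPA9 lost its call without potassium-starved shoot replicates 1 (adjusted p = 0.0862) or 3 (0.0636) or caesium-treated shoot replicates 2 (0.107) or 3 (0.0731). EXPA16 lost it without caesium-treated shoot replicates 1 (0.08), 2 (0.118) or 3 (0.0812), and was not tested without any potassium-starved replicate because it then failed the filter. TBL18 lost it without any array except potassium-starved shoot replicate 1, with adjusted p from 0.0723 to 0.132.

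With the replicate number as a block, which pairs these shoot arrays, 11 members were called, 7 higher and 4 lower, while 25.0% of all probe sets were called higher and 12.4% lower. The 5 called without the block were among them. The added ones were EXPA4, lower at -1.27 (adjusted p = 0.00896 with the block), and XTH16, XTH33, TBL35, TBL36 and TBL45, higher by 0.64 to 1.57 (adjusted p from 0.0194 to 0.0449). XTH33 had 30.9, 16.8 and 21.5 in caesium-treated shoots, against 8.54, 3.04 and 16.6 in potassium-starved shoots. Its caesium-treated array was the higher one at each replicate number, but XTH33 passed the filter through no potassium-starved array. Its difference was thus in part built in by the filter, and nothing further is read from its call with the block.

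In roots the treatments differed for 1 of the 33 members, XTH19, while 2.27% of all probe sets were called higher and 2.27% lower, 4.54% in all. The caesium-treated arrays lay all above the potassium-starved arrays for 12 members and all below for 2, beside 16.3% and 13.8% of all probe sets. XTH19 had 170, 200 and 155 in caesium-treated roots, against 79.5, 40.8 and 49.5 in potassium-starved roots (1.68 ± 0.24, adjusted p = 0.00722 by limma), and it kept the call without any 1 of the 6 arrays. EXPA4 had 403, 353 and 333 in caesium-treated roots, against 553, 530 and 608 in potassium-starved roots (-0.64 ± 0.16, adjusted p = 0.0514). Of the TBL members, 6 of 16 had all 3 caesium-treated arrays above all 3 potassium-starved arrays. TBL41 was at 1.02 ± 0.28 (adjusted p = 0.0618) and TBL25 at 0.53 ± 0.15 (adjusted p = 0.0728).

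Signals across all arrays of a tissue ordered the members within each family as follows, although probe sets differ in how brightly they bind, so the order is not one of transcript amount. In roots the 3 brightest EXPA probe sets were those of EXPA4, EXPA15 and EXPA9, the XTH ones those of XTH16, XTH18 and XTH20, and the TBL ones those of TBL36, TBL39 and TBL38. In shoots they were EXPA8, EXPA15 and EXPA4, then XTH32, XTH16 and XTH19, and TBL25, TBL45 and TBL36. EXPB3 was the brightest EXPB probe set in both tissues, followed by EXPB2 and EXPB1 in roots and by EXPB1 and EXPB2 in shoots. TBL36 ran from 362 to 615 over the 9 root arrays and from 48.7 to 349 over the 9 shoot arrays.

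The 9 members below the filter in all arrays together were EXPA21, EXPA24, EXPB5, XTH26, TBL15, TBL20, TBL21, TBL42 and TBL43, and no test was made for them. TBL21, the direct genome neighbour of TBL19, had 17.0, 6.54 and 1.42 in potassium-starved roots, 19.7, 36.8 and 15.8 in caesium-treated roots and 26.2, 35.9 and 22.0 in control roots. Its shoot signals were between 0.636 and 2.08. EXPA21 had 11.5 on potassium-starved shoot replicate 1 and 2.7 or less on the other shoot arrays.

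Other genes of wall synthesis were taken from a list of cell wall gene names, in which 20 had a probe set of their own. PRP39 and PRP39-2 matched it only by their letters, as names known for splicing factors, and are left out of the counts, which leaves 14 genes tested in shoots and 12 in roots. In potassium-starved shoots 1 of 14 was called higher and 5 lower, beside 11.4% and 16.7% of all probe sets. Of these, 3 were xyloglucan backbone synthases of the CSLC family, which make the polymer that XTH enzymes cut. CSLC04 fell by 1.22 (SE 0.16, adjusted p = 0.000899 by limma), with 161, 171 and 189 in potassium-starved shoots against 361, 428 and 429 in control shoots. CSLC5 fell by 1.45 (SE 0.21) and CSLC6 by 0.78 (SE 0.19), while CSLC12 did not pass the test at 0.02 ± 0.31.

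The mannan synthase gene of the CSLA family, CSLA03, fell by 1.76 (SE 0.28, adjusted p = 0.0019 by limma), with 19.1, 37.1 and 33.7 in potassium-starved shoots against 122, 73.5 and 102 in control shoots. COB, which encodes a GPI-anchored protein needed for oriented cell expansion, fell by 1.24 (SE 0.24). The expansin-like gene EXLA1 rose by 1.99 (SE 0.37, adjusted p = 0.00386), with 356, 388 and 139 in potassium-starved shoots against 70.0, 75.7 and 58.1 in control shoots.

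In potassium-starved roots 0 of the 12 were called by limma, with 2 at an unadjusted p under 0.05, COB at -0.49 ± 0.16 and IRX15-L, a xylan gene, at -0.64 ± 0.14 (adjusted p = 0.052). The response differed between roots and shoots for 5 of 15, beside 8.37% of all probe sets, with CSLA03 (1.54 ± 0.35), CSLC5 (1.15 ± 0.33) and CSLC04 (1.01 ± 0.22) higher and EXLA1 (-2.40 ± 0.46) and IRX15-L (-1.68 ± 0.49) lower in roots.

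Under caesium 0 of 14 were called in shoots and 0 of 12 in roots by limma, with 3 and 2 at an unadjusted p under 0.05. EXLB1 had 284, 320 and 217 in caesium-treated roots, against 145, 133 and 90.6 in control roots (1.17 ± 0.22, adjusted p = 0.127, and 0.0317 with the replicate block, whose pairing of these arrays is uncertain). Set against potassium-starved roots, where EXLB1 had 157, 129 and 110, it was higher in caesium-treated roots by 1.05 ± 0.22 (adjusted p = 0.0289). In caesium-treated against potassium-starved shoots 4 of 14 were higher and 1 lower, beside 18.0% and 8.84% of all probe sets. They were CSLA03 (1.32 ± 0.28), CSLC5 (0.98 ± 0.21), CSLC6 (0.89 ± 0.19) and CSLC04 (0.81 ± 0.16) on the higher side and EXLA1 (-2.73 ± 0.37) on the lower. PRP39, outside the counts, was also higher (0.69 ± 0.20).

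Between control tissues 4 of 15 of these genes were higher and 3 lower in roots, beside 30.6% and 22.5% of all probe sets. CSLD2, known for its part in root hair growth, was higher by 1.68 ± 0.18, IRX15-L by 1.41 ± 0.34, IRX15 by 2.03 ± 0.80 and EXLB1 by 0.97 ± 0.30. IRX15 did not pass the filter on shoot arrays alone, so its difference was in part built in by it. CSLC04 was lower by -1.45 ± 0.15, CSLA01 by -1.50 ± 0.35 and the pectin methylesterase gene PME61 by -2.56 ± 0.52.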

How the data were processed

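The deposited values were linear intensity (signal) for each probe set, which the authors computed by MAS5, as the submitters' processing notes name it. Its version and settings were not given in the sources used here. MAS5 subtracts mismatch signal, so log values of dim probe sets are noisy. The precision is limited by the number of arrays. The table held 22810 probe sets, of which 64 controls were left out. No intensity below 0 occurred, and log2 was taken with no pseudocount.

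Probe sets were tested with limma 3.58.1 in R 4.3.3 (lmFit, eBayes with trend; two-sided, Benjamini-Hochberg adjusted), after tests on simulated data. Each tissue was fitted with its 9 arrays; control roots against control shoots and the interactions used all 18. The 3 groups and their replicate numbers came from the sample titles. Same-numbered arrays deviated together in all shoot comparisons (r from 0.203 to 0.639), which pairs them. In caesium-treated against control roots r was 0.146 to 0.439. Arrays of different numbers reached 0.185 there, so that pairing is uncertain. In the other root comparisons r of same-numbered arrays went down to -0.0506 and 0.0922, which does not pair them.

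The members, lists and tests were chosen with earlier results of these data known. Every called member was named; without a call, the 2 members of each family with the smallest p; between control tissues, up to 4 per family and direction; per tissue, the 3 brightest of each family. Values of further members were chosen after seeing them. Alternatives were a pseudocount of 16, no filter, quantile normalization, a shift to a common median, array weights, the replicate block, other sets of arrays and leaving out each array.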

Additional observations from a re-analysis of the deposited data

Results flagged for a closer look

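The response to potassium starvation differed between roots and shoots for 3 members, by a test of the difference itself in a limma fit of all 18 arrays. XTH19 had a root minus shoot difference of -3.59 (adjusted p = 0.000195), being lower in potassium-starved roots and higher in potassium-starved shoots. EXPA8 had 2.02 (adjusted p = 0.0271), being lower in potassium-starved shoots. TBL25 had 0.88 (adjusted p = 0.0415), being lower in both tissues and more so in shoots, where only the shoot difference passed its test.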

How the results depend on the processing

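Of 907 values of named members under the alternatives, 820 kept their direction and side of the threshold, 84 lost their call, 1 gained a call, 2 differences without a call changed sign, and no called value changed sign. The 2 that changed sign were EXPB3 in caesium-treated shoots (-0.08 without control shoot replicate 1) and EXPA8 in caesium-treated roots (-0.01 without control root replicate 2). In potassium-starved against control roots, 2 members were called, and there were 0 with no filter, 0 with all 18 arrays in 1 fit, 0 with only the 6 arrays compared, 10 with array weights and 8 with the replicate block, whose numbers do not pair these arrays. Among root arrays 12 of 18 pairings were best with the own number. Caesium-treated against control shoots gave 1 with array weights in place of 0. Caesium-treated against potassium-starved shoots gave 2 with no filter, 11 with the replicate block, 9 with all 18 arrays and 3 with only the 6 arrays, in place of 5. The same treatments in roots gave 2 with a pseudocount of 16, 2 after the median shift, 2 with only the 6 arrays, 10 with array weights and 5 with the replicate block, in place of 1. Leaving out 1 array gave 6 to 9 calls in potassium-starved against control shoots, lowest without control shoot replicate 3, and 0 to 2 in potassium-starved against control roots. It gave 2 to 5 in caesium-treated against potassium-starved shoots, 1 to 1 in roots, and 1 to 6 for the root against shoot difference of the potassium response, with 6 without potassium-starved shoot replicate 3. The block changed the call of no member in caesium-treated against control arrays of either tissue. The cause of these changes was not tested. In potassium-starved against control shoots, all probe sets had 1670 higher and 2446 lower calls, and 2098 higher and 1836 lower after the median shift. Members with MAS5 signals below the 40th percentile in 1 group have differences that depend on the pseudocount. All alternatives here were planned.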

Other observations

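In roots, 12 of the 45 members had their highest signal on the array of replicate 1 in potassium-starved, caesium-treated and control roots alike, while 10.6% of all probe sets did. They were 8 TBL members (TBL25, TBL32, TBL37, TBL38, TBL41, TBL42, TBL43 and TBL45), XTH16, XTH21, XTH33 and EXPA20. Replicate 2 was the highest in all 3 root groups for 3 members, and replicate 3 for 0, beside 3.91% and 3.69% of all probe sets. This count was made after the values had been seen.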
